A study of Mus musculus with 16 samples.

Results

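The 16 inguinal white fat libraries differed 3020-fold in Ucp1, the uncoupling protein that lets brown and beige adipocytes release energy as heat, and 2 sets were chosen by that value, the 8 highest (high-Ucp1) and the 8 lowest (low-Ucp1) of the 16. Beige adipocytes are thermogenic cells that arise within white fat, and inguinal fat, a subcutaneous depot, is known for forming many of them. Cold and adrenergic signals act through beta-adrenergic receptors and cyclic AMP to switch on Ucp1, Dio2 and lipid-burning enzymes, and nuclear receptors of the PPAR and ERR families with the coactivator PGC-1alpha (Ppargc1a) drive mitochondrial genes. Since the Ucp1 value chose the libraries, differences between the high-Ucp1 and low-Ucp1 libraries are given as a description with their standard errors and with no p-value, and Ucp1 itself is left out of them.

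All libraries came from C57BL6/J mice and there were 4 each of high-fat diet with antibody, high-fat diet untreated, control diet with antibody and control diet untreated. The antibody was directed against PDGF-CC, a platelet-derived growth factor ligand, and was injected into the peritoneum of mice aged 6 weeks at 50 mg/kg in 100 µl, every 2 days for 2 weeks. The labels do not say what, if anything, the untreated mice were injected with, or how long the diets lasted. The labels do not say whether each library is 1 mouse, so the p-values for diet and antibody measure the spread between these libraries, which may be technical.

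In decreasing order, the 8 high-Ucp1 libraries were control diet untreated 3 with 44771 normalized counts of Ucp1, control diet with antibody 1 with 25010, control diet untreated 4 with 14599, control diet with antibody 2 with 7723, high-fat diet with antibody 1 with 6111, high-fat diet untreated 1 with 6053, high-fat diet with antibody 4 with 4978 and control diet untreated 2 with 4843. The 8 low-Ucp1 libraries were control diet with antibody 3 with 4505, control diet with antibody 4 with 1810.1, high-fat diet with antibody 2 with 835, control diet untreated 1 with 207, high-fat diet untreated 3 with 159, high-fat diet with antibody 3 with 47.9, high-fat diet untreated 4 with 30.2 and high-fat diet untreated 2 with 14.8. The libraries on either side of the boundary, ranks 8 and 9, differed by a ratio of only 1.075, so the division cuts a continuous range. The mean log2 value of Ucp1 was 13.31 ± 1.19 in the high-Ucp1 libraries and 7.78 ± 2.91 in the low-Ucp1 libraries (SD, n = 8 each). The high-Ucp1 libraries held 3 from the high-fat diet and 5 from the control diet, and the low-Ucp1 libraries held 5 from the high-fat diet and 3 from the control diet. Each set held 4 libraries with antibody and 4 without. The 4 highest libraries were all from the control diet and the 4 lowest were all from the high-fat diet.

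Tested as a designed effect on log2(value + 1), with a fit by limma across all 14189 genes, Ucp1 differed by -3.84 ± 1.39 (SE) on the high-fat against the control diet, with a Benjamini-Hochberg adjusted p of 0.0611. Leaving out 1 library at a time gave an adjusted p between 0.0236 and 0.117, under 0.05 in 3 of 16 fits by limma. The antibody effect on Ucp1 was 1.58 ± 1.39 over untreated libraries, with an adjusted p of 0.64. Neither passed the threshold of 0.05, and every one of the 4 groups had libraries on both sides of the boundary. Over all genes tested, 1207 rose on the high-fat diet, 8.51%, and 1598 fell, 11.3%. With antibody, 219 genes rose, 1.54%, and 127 fell, 0.895%.

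The stretch of 250 bases before the start of Ucp1 and of 2 genes that were higher with it is shown because Ucp1 and Dio2 are textbook targets of cyclic AMP signalling and Slc27a2 had the largest difference among genes whose sets did not overlap. The letters searched on both strands were TGACG, part of the cyclic AMP response element, AGGTCA, the half-site of nuclear receptors, and TCAAGGTCA, the longer site of the ERR receptors, which contains AGGTCA. The sequences are from RefSeq on GRCm38.p6, each on the gene's own strand from 5′ to 3′, with matches in capitals. The windows are chr8:83290098-83290347 on the plus strand for Ucp1, chr12:90739039-90739288 on the minus strand for Dio2, and chr2:126552774-126553023 on the plus strand for Slc27a2. Each window ends at the start RefSeq gives, which differs from the GENCODE start used for gene coordinates elsewhere in the text: the Slc27a2 window lies inside the GENCODE gene, and the Dio2 window lies wholly upstream of its GENCODE start and does not reach it.
Ucp1: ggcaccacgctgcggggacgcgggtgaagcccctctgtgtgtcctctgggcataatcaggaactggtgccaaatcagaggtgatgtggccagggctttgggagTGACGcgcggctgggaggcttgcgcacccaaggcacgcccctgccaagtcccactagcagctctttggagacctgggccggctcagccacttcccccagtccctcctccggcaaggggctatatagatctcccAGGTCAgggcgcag
Dio2: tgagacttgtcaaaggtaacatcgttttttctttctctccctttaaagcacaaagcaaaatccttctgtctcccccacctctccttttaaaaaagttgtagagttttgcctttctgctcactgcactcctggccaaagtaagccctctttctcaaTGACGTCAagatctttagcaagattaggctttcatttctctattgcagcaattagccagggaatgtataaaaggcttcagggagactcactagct
Slc27a2: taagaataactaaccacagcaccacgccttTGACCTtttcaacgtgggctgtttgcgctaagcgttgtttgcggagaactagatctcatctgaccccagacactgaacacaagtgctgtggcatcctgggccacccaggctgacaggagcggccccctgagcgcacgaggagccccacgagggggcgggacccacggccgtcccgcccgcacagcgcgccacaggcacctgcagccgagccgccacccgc
Ucp1 holds TGACG starting 147 bases and AGGTCA starting 14 bases before its start. Dio2 holds TGACG on both strands, starting 95 and 92 bases before its start, which overlap in the palindrome TGACGTCA. Slc27a2 holds AGGTCA on its other strand, printed as TGACCT. Promoters were matched for 41 of the 58 genes that were higher with Ucp1 by the call rule given next. TGACG was in 8 of them (19.5%), AGGTCA in 8 (19.5%) and TCAAGGTCA in 0. Among 10735 tested genes with a matched promoter the shares were 29.5%, 13.2% and 0.3%, and among all 32851 promoter windows they were 17.8%, 14.0% and 0.4%. A match is a run of letters and was not tested as a binding site.

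A gene was called where its log2 difference, with diet and antibody as covariates, was at least 1 (2-fold) and at least 3 times its standard error. By that rule 58 of 14188 genes were higher in the high-Ucp1 than the low-Ucp1 libraries, 0.409%, and 10 were lower, 0.0705%. All 8 high-Ucp1 libraries lay above all 8 low-Ucp1 libraries for 40 genes, 0.282%, and below them for 29, 0.204%. The difference was above 0 for 48.3% of all genes, and its median over all genes was -0.006.

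Thermogenic genes other than Ucp1 had the highest list median. Of 25 tested members of a thermogenic adipocyte list, 15 were called higher, against 0.409% of all genes, 0 lower and 10 were not called. The median difference was 1.38. The members were chosen with earlier results of these data known. The 15 ranged from 1.24 to 5.0 and the 10 others from -0.26 to 0.87. The median was 1.44 among high-fat libraries alone and 1.37 among control diet libraries alone. The list's mean log2 deviation from the 16-library mean was 1.87 in the highest library, 0.37 in rank 8, 0.41 in rank 9 and -1.52 in the lowest. In whole tissue, more thermogenic cells and more of these transcripts per cell cannot be told apart.

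**Figure D1:**
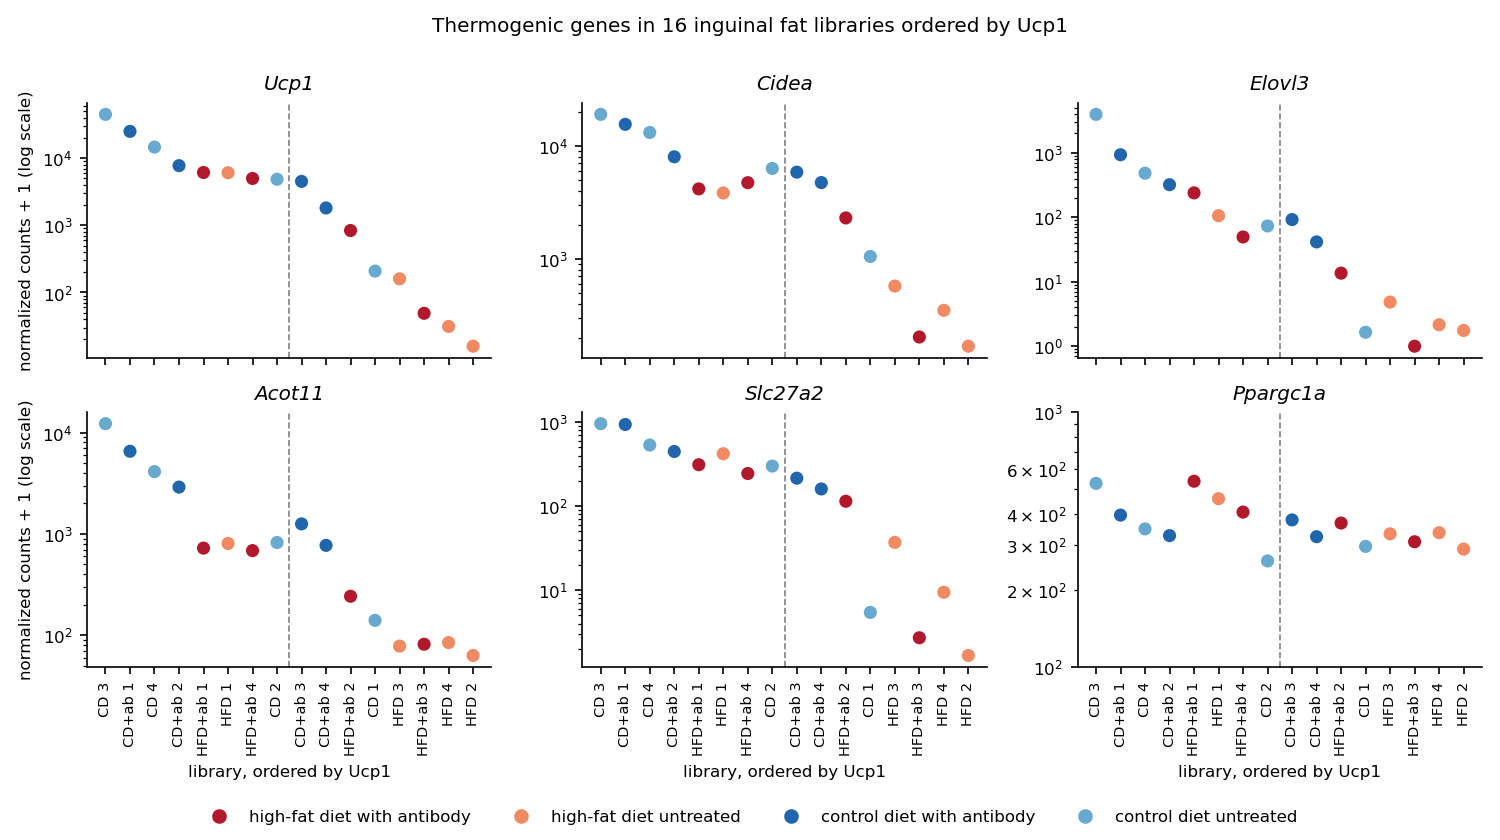
Normalized counts plus 1 (log axes) of Ucp1, Cidea, Elovl3, Acot11, Slc27a2 and Ppargc1a in each of the 16 libraries, ordered from the highest to the lowest Ucp1 and coloured by group (HFD, high-fat diet; CD, control diet; ab, antibody), with the dashed line between the 8 high-Ucp1 libraries on the left and the 8 low-Ucp1 libraries on the right. Cidea, Elovl3, Acot11 and Slc27a2 are ordered much as Ucp1 is, with 18909, 3953, 12222 and 959 normalized counts in the library highest in Ucp1, while Ppargc1a stays between 259.7 and 534.6 in all 16.

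Elovl3 (chromosome 19, 46131897 to 46135694, plus strand, GRCm38), an elongase of very long fatty acids that marks active brown fat, had the largest difference of the genes named by the rule. It had 48.6, 279 and 3953 normalized counts (lowest, median, highest) in high-Ucp1 libraries, against 0, 2.49 and 91.3 in low-Ucp1 libraries. The difference was 5.0 ± 0.87 (SE), although the 2 sets overlapped and 1 low-Ucp1 library, high-fat diet with antibody 3, was listed at 0. It depends on the pseudocount and was 3.52 with 10 in place of 1. Cidea, a lipid droplet protein and the second marker gene of the set, had 3808, 7120 and 18909 normalized counts in high-Ucp1 libraries, against 167, 806 and 5823 in low-Ucp1 libraries. Its difference was 2.58 ± 0.48, and the sets overlapped because control diet with antibody 3 and 4, ranks 9 and 10, lay at 5823 and 4710. Both markers ran with the Ucp1 order, and the 2 control diet libraries just below the boundary resembled those just above it.

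Slc27a2 (chromosome 2, 126552407 to 126588243), a very-long-chain acyl-CoA synthetase and fatty acid transporter, had 244, 434 and 959 normalized counts in high-Ucp1 libraries, against 0.67, 22.3 and 215 in low-Ucp1 libraries. It was 4.08 ± 0.85 higher with no overlap of the sets, and 3.23 higher with a pseudocount of 10. Acot11 (chromosome 4, 106744555 to 106804998, minus strand), an acyl-CoA thioesterase that cold induces in brown fat, had 684, 1858 and 12222 normalized counts in high-Ucp1 libraries, against 62.2, 112 and 1254 in low-Ucp1 libraries. Its difference was 2.91 ± 0.49. Cpt1b (chromosome 15, 89416405 to 89425863, minus strand), the muscle and brown fat form of the carnitine palmitoyltransferase that admits fatty acids to mitochondria, had 74.4, 113 and 373 normalized counts in high-Ucp1 libraries, against 3.66, 29.6 and 75.6 in low-Ucp1 libraries. The difference was 2.25 ± 0.52, or 1.82 with a pseudocount of 10, and the overlap was narrow. Fabp3, a fatty acid binding protein of heart, muscle and brown fat, differed by 2.68 ± 0.78, or by 2.13 with a pseudocount of 10. Its call ended without high-fat diet with antibody 1 (2.46) and without control diet untreated 1 (2.30), and its exons overlap those of Zcchc17 on the other strand.

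Dio2, the deiodinase that activates thyroid hormone inside brown and beige cells, had 51.7, 145 and 375 normalized counts in high-Ucp1 libraries, against 10.2, 31.8 and 82.2 in low-Ucp1 libraries. Its difference was 1.97 ± 0.42, or 1.68 with a pseudocount of 10. Otop1, a proton channel enriched in brown fat, had 991, 1405 and 3180 normalized counts in high-Ucp1 libraries, against 129, 316 and 1069 in low-Ucp1 libraries, a difference of 1.90 ± 0.33. Gk, the glycerol kinase that lets fat cells reuse glycerol, had 576, 786 and 1893 normalized counts in high-Ucp1 libraries, against 175, 237 and 529.9 in low-Ucp1 libraries. It was 1.61 ± 0.25 higher and its sets did not overlap. Pank1, which makes coenzyme A (1.57 ± 0.29), and Plin5, which ties lipid droplets to mitochondria (1.42 ± 0.31), were called too. The receptors Esrrg, an estrogen-related receptor, and Ppara, a PPAR that switches on fatty acid oxidation, were called higher, with differences of 1.34 ± 0.35 and 1.24 ± 0.27.

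The regulators best known for setting up thermogenic identity did not reach the call. Ppargc1a had 259.7, 399 and 534.6 normalized counts in high-Ucp1 libraries, against 289, 328 and 377 in low-Ucp1 libraries, and differed by 0.31 ± 0.13. Prdm16, a transcriptional switch toward the brown fate, differed by 0.24 ± 0.16, and its antibody effect was 0.68 ± 0.16 higher than untreated with an adjusted p of 0.04 by limma. Adrb3, the beta3 adrenergic receptor of adipocytes, differed by 0.25 ± 0.15, Esrra by 0.51 ± 0.13, Ebf2 by -0.11 ± 0.08 and Irf4 by -0.26 ± 0.18. Closer to the cut of 1 were Kcnk3, a potassium channel of thermogenic adipocytes (0.87 ± 0.12), and Letmd1, a mitochondrial inner membrane protein of brown fat (0.82 ± 0.21). Cyp2b10, also on the list, did not pass the filter on low values. Exons of Adrb3, Kcnk3 and Esrra overlap a gene on the other strand, so their values may hold reads of both.

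The diet and antibody effects on these genes were estimated from the same 16 libraries and are not independent of the division. Of the 25 thermogenic genes, 11 fell on the high-fat diet and 0 rose at an adjusted p under 0.05 by limma, with a median of -1.0, against 11.3% falling among all genes. That count of 11 lay between 3 (without control diet untreated 4) and 16 (without control diet untreated 1) when single libraries were left out, whereas the count of 15 higher in the high-Ucp1 libraries was 14 or 15. Cidea fell by 2.77 ± 0.77 (log2, SE), with an adjusted p of 0.0228, and Acot11 fell by 3.12 ± 0.84, with an adjusted p of 0.0201 by limma. Without control diet untreated 4, the adjusted p of Cidea was 0.0511. Elovl3 differed by -3.71 ± 1.47, with an adjusted p of 0.0833. With antibody, 1 of the 25, Prdm16, rose and 0 fell, and Prdm16 passed in only 4 of the 16 single-library omissions (adjusted p 0.0119 to 0.0833 by limma). Within a single diet, Cidea was 3.07 ± 0.76 higher among high-fat libraries and 2.11 ± 0.54 higher among control diet libraries. For Acot11 these within-diet differences were 2.80 ± 0.37 and 3.21 ± 0.88, and for Slc27a2 they were 4.69 ± 1.36 and 3.87 ± 0.91.

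**Figure D2:**
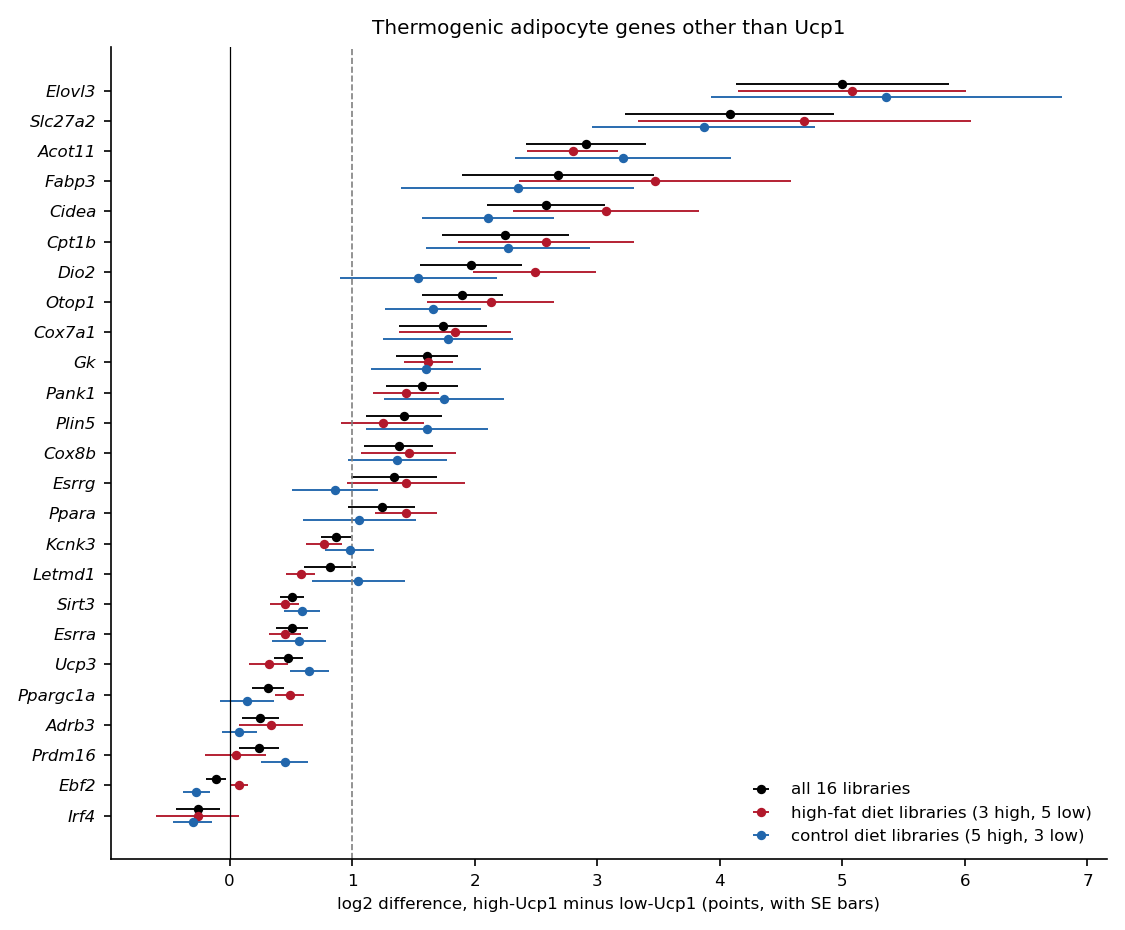
Log2 difference, high-Ucp1 minus low-Ucp1 libraries, for the 25 tested thermogenic adipocyte genes (points, with bars of 1 SE), over all 16 libraries (black) and within the high-fat (red, 3 high and 5 low) and control diet (blue, 5 high and 3 low) libraries; the dashed line marks 1. The 15 called genes run from 1.24 for Ppara to 5.0 for Elovl3, and Ppargc1a, Adrb3, Prdm16, Ebf2 and Irf4 lie between -0.26 and 0.31.

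Of 9 tested genes proposed to mark beige cells as against white or brown ones, 0 were called, with a median of 0.08. Over all genes 0.409% were called higher and 0.0705% lower, so 0 called in a list this short says little about its genes. Ear2, 1 of the 9, lay lower in all 8 high-Ucp1 than in all 8 low-Ucp1 libraries, as 0.204% of all genes did. It had 182, 380.2 and 471 normalized counts in high-Ucp1 libraries, against 478, 555 and 662 in low-Ucp1 libraries, a difference of -0.57 ± 0.14. Cited1 differed by 1.25 ± 0.46, under 3 standard errors, and Tmem26, a surface marker of beige precursors, by 0.01 ± 0.25. Of 5 tested genes of classical brown fat, 1 was called lower, Hspb7 at -1.36 ± 0.35, and the median was -0.08. That median was -0.01 with the mean of a skeletal muscle list as a covariate. Of 8 genes of creatine and calcium cycling, heat-making routes that need no Ucp1, 0 were called, which again says little. The median of the 8 was -0.21. Ckb, the creatine kinase of that cycle, differed by -0.17 ± 0.13. The median of these 8 genes was -0.01 among high-fat and -0.15 among control diet libraries. It was -0.08 with the mean of a skeletal muscle list as a covariate.

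Mitochondrial genes had smaller differences that were mostly above 0. Of 84 respiratory chain subunits, 81 had a difference above 0, against 48.3% of all genes, with a median of 0.41. Of the 84, 2 were called, against 0.409% of all genes called higher. Those were Cox7a1 and Cox8b, subunit forms of cytochrome oxidase used in muscle and brown fat, at 1.74 ± 0.36 and 1.38 ± 0.28. Cox7a1 had 459, 636 and 2253 normalized counts in high-Ucp1 libraries, against 70.1, 224 and 613 in low-Ucp1 libraries. The lowest value of the list, -2.23, was Cox6a2, another muscle form. The median was 0.33 among high-fat and 0.50 among control diet libraries. On the high-fat diet 82 of the 84 were lower by limma at an adjusted p under 0.05, against 11.3% of all genes. That count was 74 to 82 over single-library omissions and 73 with replicate number as a block. Of 77 mitochondrial ribosome genes 75 lay above 0, with a median of 0.18. That was 0.1 among high-fat and 0.26 among control diet libraries. Genes of the proteasome, which is not mitochondrial, lay above 0 for 34 of 37, with a median of 0.11. Their median was 0.01 among high-fat and 0.21 among control diet libraries. A small shift of 1 sign was therefore not particular to mitochondrial genes. Of 76 cytosolic ribosome genes only 3 lay above 0, with a median of -0.08.

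Fatty acid oxidation genes were above 0 for 23 of 23, against 48.3% of all genes, with a median of 0.56. Of the 23, 1 was called, Cpt1b, against 0.409% of all genes called higher. For 5 of the 23, Acadm, Acadl, Eci1, Eci2 and Slc25a20, all high-Ucp1 libraries lay above all low-Ucp1 libraries, against 0.282% of all genes. Acadl, the long-chain acyl-CoA dehydrogenase, had 15508, 17578 and 32476 normalized counts in high-Ucp1 libraries, against 8511, 10472 and 14184 in low-Ucp1 libraries, a difference of 0.73 ± 0.14. Acadm, the medium-chain enzyme, had 15970, 17559 and 25522 in high-Ucp1 libraries, against 9794, 11692 and 14607 in low-Ucp1 libraries, a difference of 0.61 ± 0.11. All 19 genes of the TCA cycle and pyruvate dehydrogenase were above 0, with a median of 0.56. Pdk4, the kinase that shuts pyruvate dehydrogenase, was called at 1.24 ± 0.30.

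Lipogenesis and sugar handling genes had a median difference above 0 that was larger among control diet than high-fat libraries, although that contrast was not tested. Of 21 lipogenesis genes 2 were called higher, against 0.409% of all genes. They were Elovl6, which elongates palmitate (1.61 ± 0.26), and Acacb, which makes malonyl-CoA at mitochondria (1.02 ± 0.26). The list's median was 0.15 among high-fat and 0.78 among control diet libraries. On the high-fat diet 19 of 21 fell by limma at an adjusted p under 0.05, against 11.3% of all genes. That count was 13 to 20 over single-library omissions and 12 with replicate number as a block. Fasn, fatty acid synthase, differed by 0.90 ± 0.18 between the sets and by -2.03 ± 0.28 on the high-fat diet, with an adjusted p of 0.0021 by limma. Elovl6, which starts at 129532355, shares exon sequence only near its start with Gm35986 on the other strand, which ends at 129532388. The call of Acacb ended without any of 4 libraries, with values from 0.74 to 0.96. Of 15 genes of glucose and glycerol handling 4 were called higher, against 0.409% of all genes. The median of the 15 was 0.57, which was 0.42 among high-fat and 0.80 among control diet libraries. Slc2a5, the fructose transporter, had 127, 789 and 1410 normalized counts in high-Ucp1 libraries, against 3.25, 67.1 and 520.2 in low-Ucp1 libraries. Its difference was 2.14 ± 0.41, or 1.86 with a pseudocount of 10. Its diet effect was -3.80 ± 0.65, with an adjusted p of 0.00418 by limma. The others were Gk, Gpd2, which passes electrons from glycerol 3-phosphate to the respiratory chain (1.15 ± 0.21), and Gys2, glycogen synthase (1.04 ± 0.23). Gpd2 was 1.0 and no longer called without control diet untreated 1, and Gys2 lay between 0.90 and 0.99 without any of 4 libraries. Exons of Gpd2 overlap those of A930012O16Rik on the other strand.

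**Figure D3:**
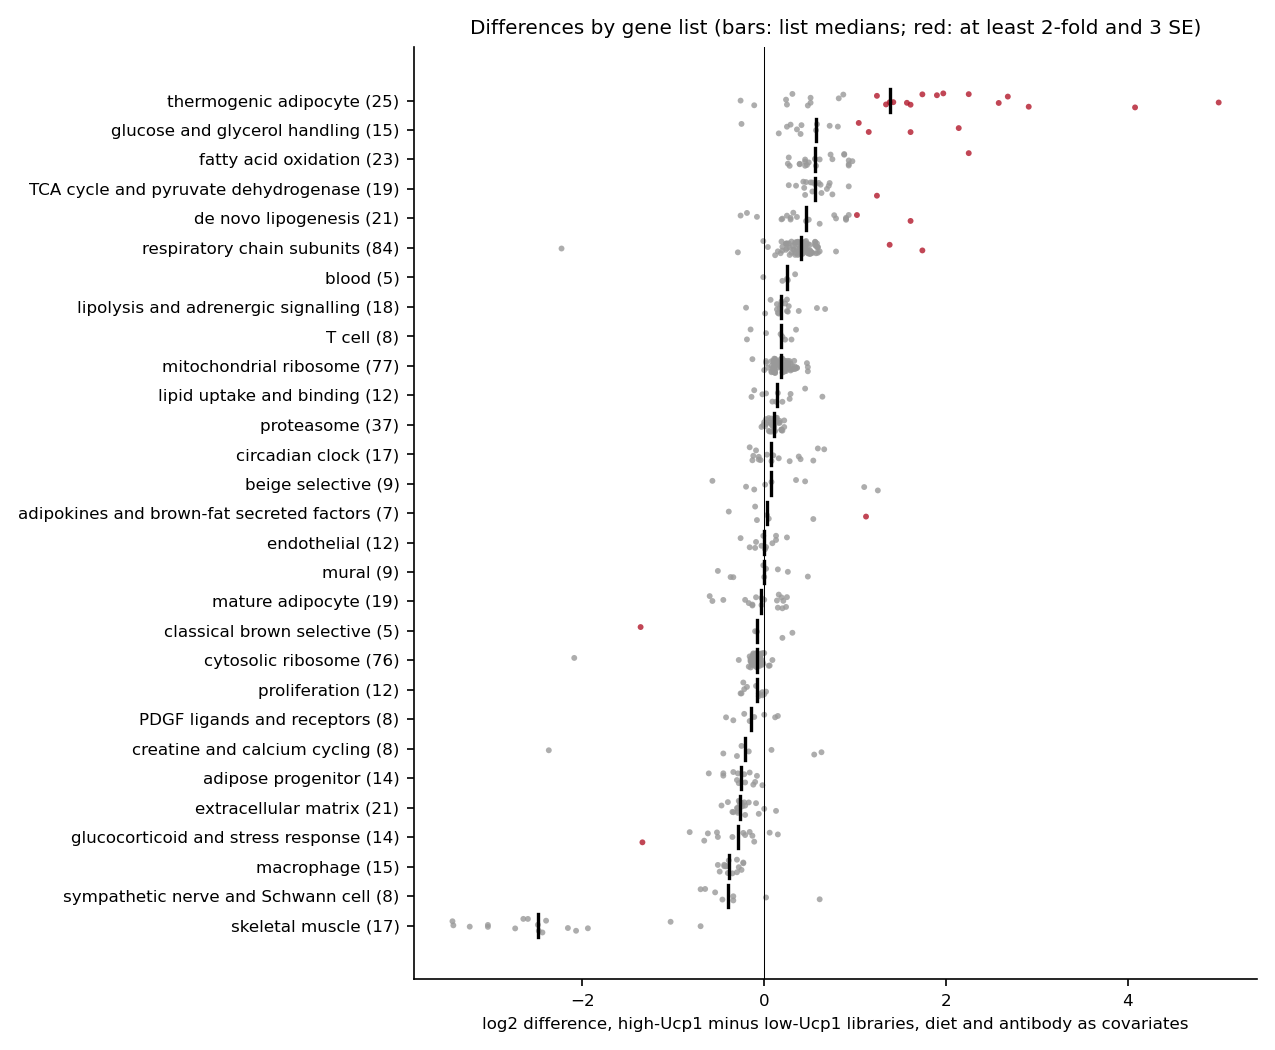
Log2 difference, high-Ucp1 minus low-Ucp1 libraries, of each tested gene (points) by list, with list medians (black bars), the number tested in brackets and called genes in red. The thermogenic adipocyte list has the highest median, 1.38, and the skeletal muscle list the lowest, -2.49, with wide spread; the mature adipocyte, endothelial and mural lists lie at -0.03, 0.00 and 0.00.

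Aspg and Sorcs2 were in none of the lists and were among the 12 largest differences of genes with a set mean of at least 100 normalized counts. Aspg, an asparaginase, had 255, 1020.1 and 2662 normalized counts in high-Ucp1 libraries, against 23.8, 67.8 and 802 in low-Ucp1 libraries, a difference of 2.62 ± 0.41. Sorcs2, a sorting receptor, had 212, 782 and 1504 in high-Ucp1 libraries, against 44.6, 114 and 578 in low-Ucp1 libraries, a difference of 1.77 ± 0.26. Angptl8, a secreted regulator of lipoprotein lipase, was called at 1.12 ± 0.35, but the call ended without any of 8 libraries. Markers of the mature adipocyte itself did not separate the sets. Of 19 mature adipocyte genes 0 were called, against 0.409% of all genes called higher and 0.0705% lower, with a median of -0.03. Adipoq, adiponectin, had 78008, 89119 and 95803 normalized counts in high-Ucp1 libraries, against 84571, 90300.2 and 97146 in low-Ucp1 libraries. Of 18 genes of lipolysis and adrenergic signalling 17 were above 0, against 48.3% of all genes, with a median of 0.19, and 0 were called. Lep, leptin, differed by -0.57 ± 0.23.

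Among other cell types, macrophage genes had small differences of 1 sign. All 15 macrophage genes had a difference under 0, from -0.51 to -0.23 with a median of -0.39, and 0 were called. Over all genes 48.3% had a difference above 0, 0.409% were called higher and 0.0705% lower. The macrophage median was -0.13 among high-fat and -0.51 among control diet libraries. Lyz2, lysozyme, had 8732, 10997 and 13953 normalized counts in high-Ucp1 libraries, against 11482, 14720.1 and 19846 in low-Ucp1 libraries. Among the 29 genes (0.204% of all) with all high-Ucp1 libraries below all low-Ucp1 libraries were Retnla, Ccl24, Cd209d and Csf1, named after their values were seen. Retnla and Ccl24 mark macrophages activated by type 2 cytokines, and Csf1 is the growth factor of macrophages. Retnla differed by -0.80 ± 0.12, Ccl24 by -0.90 ± 0.12 and Csf1 by -0.48 ± 0.09. Adipose progenitor genes were under 0 for 14 of 14, with a median of -0.25, and extracellular matrix genes for 19 of 21, with a median of -0.27. Both medians were nearer 0 among high-fat libraries, at -0.11 and -0.01. On the high-fat diet 11 of 21 matrix genes rose by limma at an adjusted p under 0.05, against 8.51% of all genes. That count was 8 to 16 over single-library omissions and 8 with replicate number as a block. Pdgfc, the ligand the antibody targets, differed by -0.34 ± 0.10, and Pdgfra, its receptor, by -0.22 ± 0.11. Schwann and nerve genes had a median of -0.40 with 0 of 8 called, and T cell genes 0.19 with 0 of 8 called.

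**Figure D4:**
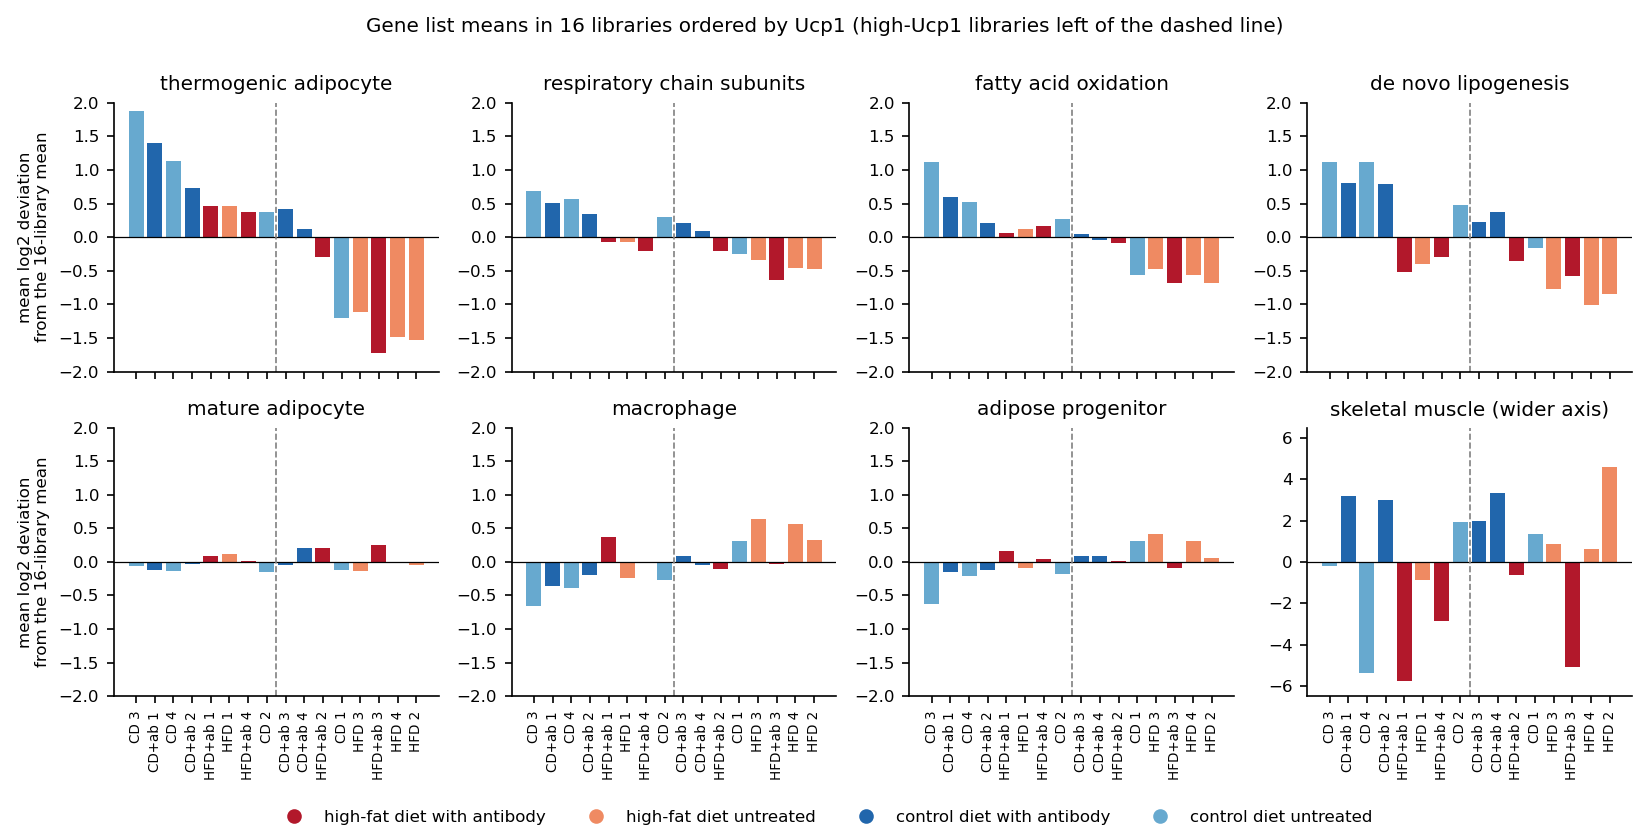
Mean log2 deviation of each list from its mean over the 16 libraries, per library in order of Ucp1 (bars coloured by group; high-Ucp1 libraries left of the dashed line; the skeletal muscle panel has a wider axis). The thermogenic adipocyte bars are 1.87 in the library highest in Ucp1 and -1.52 in the lowest, the mature adipocyte bars lie close to 0, and the skeletal muscle bars run from 4.57 to -5.76, with bars above and below 0 on both sides of the line.

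Skeletal muscle genes varied strongly between libraries of both sets. The summed muscle list had 1232, 9466 and 231858 normalized counts in high-Ucp1 libraries, against 2131, 32064 and 689704 in low-Ucp1 libraries, so the sets overlapped over most of their range. Of 17 muscle genes 0 were called, against 0.0705% of all genes called lower, and 0 were above 0, against 48.3%. Their median was -2.49, which was -2.23 among high-fat and -0.62 among control diet libraries. With the muscle list's mean as a covariate, 50 of the 58 genes called higher and 5 of the 10 called lower were still called, and the thermogenic median was 1.37. Several genes above are also expressed in muscle, and the library with the lowest Ucp1, high-fat diet untreated 2, had the highest muscle mean (4.57). In it Fabp3 had 79.8, Cpt1b 38.8 and Cox7a1 268 normalized counts, above the 7.40, 10.5 and 107 of high-fat diet untreated 4, its neighbour in the order. With the covariate, Fabp3, Cpt1b and Cox7a1 differed by 3.14, 2.59 and 1.85. Mybpc1, a myosin binding protein of slow muscle and the largest difference among the lower named genes, was -2.76 ± 0.80. It was -1.87 with the covariate and -2.03 with a pseudocount of 10. Its call ended without control diet with antibody 3 (-2.34). Myl3, a myosin light chain outside the muscle list, was called higher at 1.53 ± 0.34, and in all 16 single-library omissions. Its exons overlap those of Pth1r on the other strand. Mt2, a metallothionein induced by stress hormones (-1.34 ± 0.44), and Folh1, a folate hydrolase (-1.05 ± 0.29), were the other named lower genes, and their calls ended in 11 and 5 of the 16 single-library omissions.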

How the data were processed

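Poly-A RNA of inguinal fat was sequenced with a stranded kit, per the labels' protocols. The submitters' processing notes name fastp 0.20.1, STAR 2.7.0e, featureCounts, Subread 1.6.2, limma 3.42.2 and the builds mm10 and GRCm38. The deposited table holds a linear signal that its authors call normalized counts. The normalization method is not given in the sources used here, and neither is the use of strand in counting. Read depth therefore cannot be stated. In units of 1e6, the values of a library summed to between 24.02 and 28.15. Genes over 24.49 (1 CPM of the median total) in at least 4 libraries were kept, which left 14189 of 16091. They were converted to log2(value + 1) and fitted with limma 3.58.1 in R 4.3.3, for set, diet and antibody (residual df 12), or for diet and antibody (residual df 13), with a trended prior and Benjamini-Hochberg adjustment. The scripts were tested on simulated data. Named genes are fixed markers, the 12 largest called each way with a set mean of at least 100, and up to 4 members of each list. Members and lists were chosen with earlier results of these data known. No epithelial marker (mammary, skin) was in the table used. Coordinates are from GENCODE vM21.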

Additional observations from a re-analysis of the deposited data

Results flagged for a closer look

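In 8 of 140 groups of 4 libraries examined, 1 library lay far from the other 3, with its gap to the nearest over 0.829 of the group's range. Chance alone gives about 1 such group in 20. High-fat diet untreated 1, the library of its group with the highest Ucp1, stood apart in Acot11 (log2 value 9.65, others 5.98 to 6.41), in Aspg (8.60, others 4.86 to 5.32) and in Pdgfc (9.26, others 9.51 to 9.55). It was the only high-Ucp1 library of its group, against 3 low-Ucp1 libraries. Acot11 and Aspg were named for large differences between the sets. Their gaps are therefore tied to that choice, and the chance rate does not apply to them. Control diet with antibody 3 was low in Pparg (12.37) and in Acta1 (12.55), control diet with antibody 4 in Adrb3 (13.29), control diet with antibody 1 in Mt2 (8.77), and control diet untreated 2 in Lep (12.79).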

How the results depend on the processing

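The counts of 58 genes higher and 10 lower in the high-Ucp1 libraries were recomputed under other settings, and no called gene changed sign in any of them. The higher count was 99 without covariates. The lower count was 4 with a pseudocount of 10, 17 with no filter, 5 with quantile normalization, 21 against continuous log2 Ucp1, 5 with the muscle mean as covariate and 22 with the replicate block, under which the higher count was 83. Within the control diet alone the lower count was 32, and within the high-fat diet alone 6; these were added after seeing the data. Leaving out single libraries gave 40 to 70 genes higher and 5 to 17 lower, the fewest higher without control diet untreated 1, when 40 of the 58 were still called. The lower count was 17 without high-fat diet untreated 1, 6 without high-fat diet with antibody 4 or control diet untreated 1, and 5 without control diet with antibody 4. For diet, 1207 rose and 1598 fell; with the replicate block 667 and 1033, over single omissions 649 to 2051 and 1018 to 2194, and without both end libraries, added later, 731 rose. Over 1.5-fold shifts in the diet count that rose came without control diet untreated 1 (2051) and, downward, without control diet untreated 4 (649), high-fat diet untreated 4 (718), control diet with antibody 1 (779) or 2 (791), or high-fat diet with antibody 3 (797); the count that fell was 1018 without control diet untreated 4. With the replicate block, 4 of 25 thermogenic genes fell on the high-fat diet, and the antibody effect on Prdm16 had an adjusted p of 0.0692 by limma. For antibody, 219 rose and 127 fell; with the replicate block 106 and 51, and over single omissions 114 to 281 and 44 to 162, both lowest without high-fat diet with antibody 2 and also low without control diet with antibody 2 or 4, control diet untreated 2, or high-fat diet untreated 3 or 4; without control diet with antibody 1 or 3, 73 and 84 fell. Of 870 list medians 3 and of 3915 named gene values 37 moved by more than the SD of the log2 level across the low-Ucp1 libraries. That is a wide margin, which leaving out a single library can hardly exceed. These counts therefore cannot show that the values were stable. The 4 highest against the 4 lowest libraries could not be fitted with diet as a covariate, because those sets are control diet and high-fat diet throughout. The normalization upstream limits all levels, and values under about 24 are near the filter. Same-numbered libraries of different groups did not deviate together throughout: 10 of 24 pairs had deviations correlated over 0.1 (-0.539 to 0.487 in all), among them all 6 pairs of number 2 (0.126 to 0.487), 2 of 6 each for numbers 1 and 3 and 0 of 6 for number 4, and 6 of 16 libraries correlated best with one of their own number, so the numbers were not taken to pair the samples.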
